A study of Mus musculus with 22 samples.

Results

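The follicular helper genes followed here are Bcl6, Cxcr5, Il21, Icos, Sh2d1a, Btla, Cd40lg, Slamf6 and Cd200, 9 of the 24091 gene symbols in the count table. They were picked by symbol as a set of known genes of follicular helper T cells (Tfh cells), and all 9 were among the 12841 genes tested over all libraries. The data are RNA-seq of donor T cells in a mouse model of hematopoietic cell transplantation. The donors were wild-type C57BL/6 mice, whose spleen and marrow cells went into wild-type BALB/c hosts after lethal irradiation. Hosts got either control IgG or a monoclonal antibody to IL-2 (anti-IL-2) on alternate days between day 0 and day 6, and on day 7 the donor T cells were sorted by flow cytometry as CD4 or CD8 from the spleen and from the colon (gut below). The series sets out to examine the IL-2 and STAT5 pathway in these cells. The 8 groups are CD4 and CD8 cells of spleen and gut after IgG or anti-IL-2. Of these, 6 groups have 1 library in each of the batches labelled 181201, 181212 and 190306, and the gut IgG groups have 2, with none in batch 181201. The recipients' ages and the number of animals behind a library are not stated in the sources used here. Every group shares the irradiation, the transplant and the allogeneic host, so no group is a resting or untransplanted control.

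Tfh cells are CD4 T cells that enter B cell follicles and help B cells to make antibody. BCL6, a transcriptional repressor, directs the fate. CXCR5 is the receptor that draws the cells to the follicle, ICOS is a costimulator that keeps them there, and IL-21 and CD40 ligand are the help signals given to the B cell. SAP, the adaptor encoded by Sh2d1a, and the SLAM receptor encoded by Slamf6 act at the contact with the B cell, and BTLA and CD200 are inhibitory members of the same surface set. IL-2 works against this fate: its receptor activates STAT5, which represses Bcl6 and favours Blimp-1, the product of Prdm1, and BCL6 and Blimp-1 repress each other. CXCR5 and Bcl6 are also made by memory-like CD8 T cells that carry TCF1, the product of Tcf7.

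The members lie on 5 chromosomes of the mouse build mm10 (GENCODE M21). Bcl6 (chr16:23965052-23988852), Btla (chr16:45224315-45257670) and Cd200 (chr16:45382135-45409053) share chromosome 16, Icos (chr1:60977927-61000320) and Slamf6 (chr1:171917515-171953170) share chromosome 1, and Sh2d1a (chrX:42502453-42529330) and Cd40lg (chrX:57212143-57224042) share the X chromosome. Il21 is at chr3:37222759-37232636 and Cxcr5 at chr9:44511787-44561877. The kit marks strand, but the strand setting of the counting is not given in the sources used here, so genes on the opposite strand matter. Tenm1 shares 1465 exon bases with Sh2d1a and had at most 1 count in a library. Bcl9l shares 110 exon bases with Cxcr5 and ran from 111 to 279.6 CPM (counts scaled to a common library size by TMM, edgeR's normalization between libraries), so some reads of the shared stretch could have been assigned to either. Gene models on the opposite strand that share 469 exon bases with Il21 and 21 with Bcl6 are not in the count table.

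The start regions of Bcl6 and Il21 are shown because these genes are the described targets of STAT5, STAT3 and TCF1. RefSeq promoter windows (build GRCm38.p6, 250 bases before to 50 after a start site) matched 5 of the 9 members with 6 windows, 2 of them for Bcl6. Both strands were searched for a STAT dimer site (TTCNNNGAA), the BCL6 core (TTCCTNGAA, which is also a STAT dimer site) and a TCF/LEF site (CTTTGT or CTTTGA). In the sequences, read 5′ to 3′ on the strand of the gene, capitals mark these matches.
Bcl6, start at its first exon, chr16:23988803-23989102, minus strand: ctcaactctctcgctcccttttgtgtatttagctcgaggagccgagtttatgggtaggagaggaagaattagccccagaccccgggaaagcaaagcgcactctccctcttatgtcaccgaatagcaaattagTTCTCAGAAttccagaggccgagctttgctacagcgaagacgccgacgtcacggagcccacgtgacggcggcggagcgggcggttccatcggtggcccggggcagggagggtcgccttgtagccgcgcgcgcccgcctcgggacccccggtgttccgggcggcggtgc
Bcl6, inner start within an intron of the gene, chr16:23981234-23981533, minus strand: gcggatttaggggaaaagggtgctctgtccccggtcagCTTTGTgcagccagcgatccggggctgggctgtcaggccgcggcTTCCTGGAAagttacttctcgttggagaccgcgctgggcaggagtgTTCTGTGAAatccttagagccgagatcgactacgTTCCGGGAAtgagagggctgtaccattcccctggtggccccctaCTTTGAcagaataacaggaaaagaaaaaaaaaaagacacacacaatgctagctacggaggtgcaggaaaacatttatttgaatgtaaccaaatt
Il21, chr3:37232587-37232886, minus strand: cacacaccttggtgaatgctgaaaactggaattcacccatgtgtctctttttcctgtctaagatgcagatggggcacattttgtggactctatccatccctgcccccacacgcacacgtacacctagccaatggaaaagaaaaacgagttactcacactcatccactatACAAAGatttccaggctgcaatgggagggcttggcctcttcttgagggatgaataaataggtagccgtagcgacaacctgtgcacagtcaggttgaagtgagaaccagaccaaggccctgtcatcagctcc
The first Bcl6 window holds 1 STAT dimer match, 118 bases before the start. The inner window holds 3, at 168, 122 and 88 bases before that start, and the first of them is also the BCL6 core. It further holds CTTTGT 212 bases and CTTTGA 44 bases before the start, and the Il21 window holds CTTTGT on the other strand, 81 bases before the start. Of 32851 mouse windows of this length, 8.3% hold the STAT dimer letters, 1.59% the BCL6 core, 18.7% CTTTGT and 16.0% CTTTGA. The windows of Btla, Slamf6 and Cd200 hold none of these letters. A match of letters is a description of the sequence and was not tested for binding.

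Libraries held 14628806 to 24518362 counts in total, and 14042 to 15411 gene names had a count. Cd4 RNA stood at 1802 to 2609.9 CPM in libraries labelled CD4 and at 0.32 to 7.21 CPM in those labelled CD8, and Cd8a ran from 912 to 2130.1 CPM in CD8 and from 0.12 to 3.60 CPM in CD4 libraries. For the 5 CD8 IgG libraries the description names the other tissue; the tissue of the source name was used, and the summed gut residence markers (Itgae, Ccr9, Cxcr6, Itga1 and Cd69) ran from 868 to 2035 CPM in gut and from 313 to 793 CPM in spleen libraries so named. Il2ra, a receptor gene that IL-2 induces through STAT5, was lower after anti-IL-2 in batches 181201 and 181212, whereas in batch 190306 the labelled anti-IL-2 libraries were the higher ones. In spleen CD4 cells, for example, its differences in log2 CPM were -1.98, -2.05 and 1.76 in the 3 batches. The libraries of batch 190306 therefore go against their treatment labels as read from this gene. They were kept under those labels. Treatment was fitted in the other batches, and again in all 3. Batch 190306 was set apart with the direction of Il2ra and of the members known, and Il2ra moves with several members (correlations are given further on), so the choice of batches is not independent of the members. The calls of the 2-batch fit describe those batches, and their p-values make no allowance for that choice.

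The members covered a wide range of levels. Per kilobase of exon (CPM per kb, the scale on which genes can be compared), Icos was the highest member in each of the 4 populations, from 80.2 ± 15.5 (SD, n = 6 libraries) in spleen CD8 cells to 240.0 ± 50.4 (SD, n = 6) in spleen CD4 cells. In spleen CD4 cells Btla (123 ± 49.2), Cd40lg (91.1 ± 15.4) and Slamf6 (89.4 ± 37.0) came next and did not differ beyond their spread. Cxcr5 stood at 40.3 ± 24.8, Cd200 at 22.8 ± 9.85, Sh2d1a at 15.7 ± 4.11 and Il21 at 15.5 ± 7.40. Bcl6 was the lowest there, at 9.75 ± 5.01 CPM per kb. In spleen CD8 cells the lowest were Il21 (1.16 ± 0.805), Cd40lg (1.79 ± 0.849) and Bcl6 (1.87 ± 0.90). The smallest counts behind a value were 12 for Cxcr5, 25 for Cd40lg, 32 for Il21 and 125 for Bcl6. In these sorted but mixed populations, fewer cells that make a transcript and less transcript per cell cannot be told apart.

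**Figure D1:**
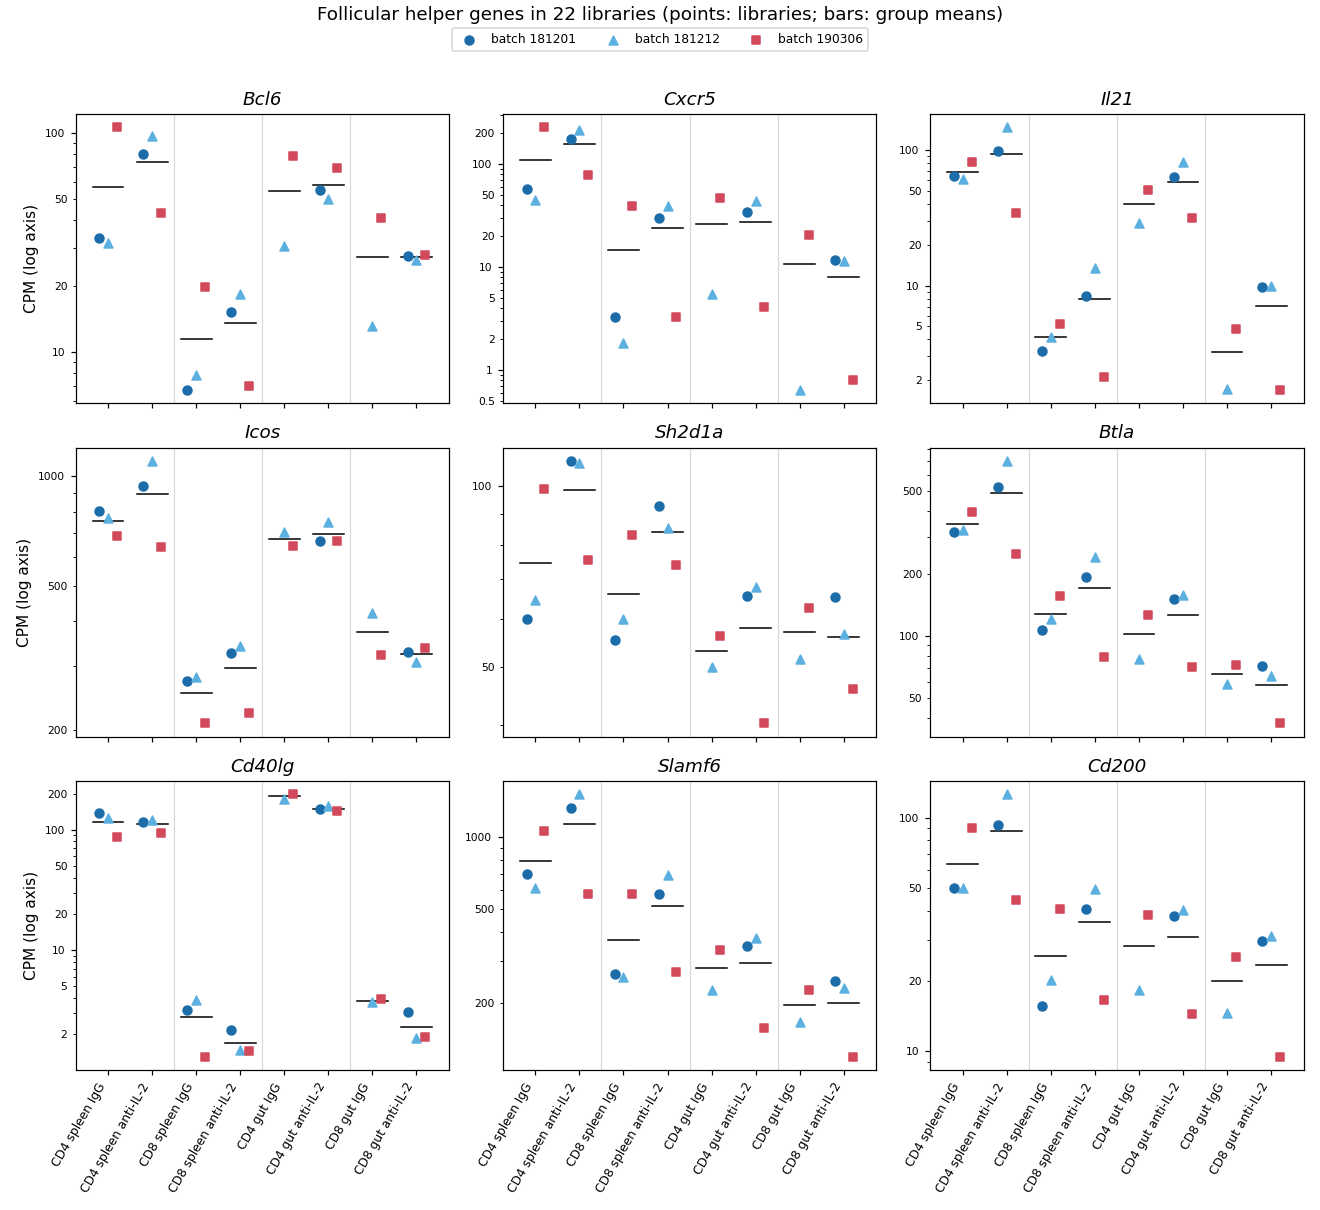
Level of each follicular helper gene in the 22 libraries, in CPM on a log axis, by group of cell type, tissue and labelled treatment; points are libraries, coloured by batch, and bars are group means. Cxcr5 spans 0.64 to 228 CPM, and in each population the batch 190306 library labelled anti-IL-2 lies below its IgG partner, while that of batch 181212 lies above.

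Anti-IL-2 libraries of batches 181201 and 181212 held more RNA of most follicular helper genes than IgG libraries, in batches chosen with that direction known. Spleen CD4 cells showed a rise of 8 of the 9, against 20.1% of all 13073 genes called (9.8% higher, 10.3% lower). Spleen CD8 cells had 8 higher and 1 lower, against 12.1% of genes called (6.06% higher, 6.08% lower). In gut CD4 cells 7 were higher, against 11.7% (6.04% higher, 5.68% lower), and in gut CD8 cells 5 were higher and 1 lower, against 10.7% (5.51% higher, 5.22% lower). The median log2 fold change of the 9 was 0.94 (spleen CD4), 1.20 (spleen CD8), 0.83 (gut CD4) and 0.54 (gut CD8), and the median of all genes tested was 0.0016, -0.0048, 0.0074 and 0.012. In the gut 2 anti-IL-2 libraries stood against a lone IgG library, assumed to vary as the rest did. In batch 190306 the labelled difference was negative for 8 of 9 members (spleen CD4), 7 (spleen CD8), 8 (gut CD4) and 8 (gut CD8), where 53%, 50.2%, 52.9% and 49.3% of all genes had a positive difference.

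Some markers of antigen-presenting cells were higher in the same anti-IL-2 libraries. Cd74, the invariant chain of MHC class II, went from 20.05 to 73.4 and from 12.1 to 43.5 CPM in spleen CD4 cells of batches 181201 and 181212, and from 11.2 to 21.9 and from 4.10 to 14.3 CPM in spleen CD8 cells. In the gut of batch 181212 it went from 12.2 to 50.2 CPM (CD4) and from 4.38 to 48.9 CPM (CD8). In batch 190306 Cd74 was lower in the library labelled anti-IL-2 in each population, for example at 15.6 against 67.0 CPM in spleen CD4 cells. The same held for H2-Aa (0.09 to 10.7 CPM over all libraries). H2-Ab1 was lower there in the spleen (3.03 against 6.25 CPM in CD4 and 0.88 against 2.65 in CD8 cells). In the gut of that batch it was higher (4.22 against 3.21 and 1.11 against 0.94 CPM), and Itgax was higher in all populations but gut CD8 cells. Of the 9 dendritic cell markers 5 were tested, of which 2 (spleen CD4), 0 (spleen CD8), 1 (gut CD4) and 2 (gut CD8) were called higher and 1 (Itgax, spleen CD4) lower. The defining markers Clec9a, Flt3, Siglech and Xcr1 were at 0 to 0.26 CPM. Itgax, which activated CD8 T cells also make, gave most of the summed level in CD8 cells. In CD4 cells the sum ran from 90.2 to 111 CPM after IgG and 73.3 to 129 CPM after anti-IL-2 in spleen, and from 115 to 162 and 132 to 198 CPM in gut. In CD8 cells the sum ran from 428 to 491 and 327 to 496 CPM in spleen, and from 551 to 627 and 500.2 to 554 CPM in gut. Some epithelial markers differed with treatment in the gut. In CD4 cells 3 of 6 were called higher and 1 lower, against 6.04% and 5.68% of all genes. In CD8 cells 4 of 6 were called higher, against 5.51%. Spleen CD4 cells had 0 called higher and 1 lower, against 9.8% and 10.3%. None were called in spleen CD8 cells, against 12.1%. In batch 181212 Krt19 went from 0.28 to 2.90 (gut CD4) and from 0.59 to 5.15 CPM (gut CD8), and Vil1 from 0.39 to 2.84 and from 0.53 to 4.36 CPM. Over all batches the summed epithelial markers in gut CD4 cells were at 18 to 34.6 CPM after IgG and 29.4 to 99.3 CPM after anti-IL-2. In gut CD8 cells they were at 45.6 to 49.9 and 60.8 to 98.4 CPM. The sum of 99.3 CPM is that of batch 190306, where Cdh1 alone gave 89.0 CPM. Within batch 181212 the gut CD4 sum fell from 34.6 to 29.4 CPM, with Cdh1 going from 28.2 to 14.5 CPM. The gut CD8 sum of that batch rose from 49.9 to 60.8 CPM. The part of these markers' cells in the treatment differences was not tested.

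Bcl6, the repressor that directs the Tfh fate, was higher after anti-IL-2 in batches 181201 and 181212 wherever a batch held both treatments. Spleen CD4 cells held 33.1, 31.6 and 106 CPM in the IgG libraries of batches 181201, 181212 and 190306 and 80.2, 97.6 and 43.1 CPM in those labelled anti-IL-2. In spleen CD8 cells the IgG libraries held 6.70, 7.86 and 19.8 CPM and the anti-IL-2 libraries 15.3, 18.4 and 6.99 CPM. The first 2 values rise from IgG to anti-IL-2 and the last falls, so the 3-batch groups overlap in both cell types. In the gut the IgG libraries (batches 181212 and 190306) held 30.4 and 78.4 CPM in CD4 and 13.1 and 41.2 CPM in CD8 cells. The gut anti-IL-2 libraries held 55.1, 50.2 and 69.1 CPM in CD4 and 27.5, 26.2 and 27.9 CPM in CD8 cells, again overlapping with IgG. By edgeR's quasi-likelihood test on batches 181201 and 181212, spleen CD4 cells had a log2 fold change of 1.47 ± 0.11 (SE, adjusted p = 1.22e-06), a 2.76-fold rise. It was 1.20 ± 0.14 for spleen CD8 (adjusted p = 0.000107), 0.83 ± 0.14 for gut CD4 (adjusted p = 0.00254) and 1.07 ± 0.16 for gut CD8 cells (adjusted p = 0.00111). In batch 190306 the difference in log2 CPM was -1.30 and -1.49 for the spleen, CD4 first, and smaller in the gut at -0.18 and -0.56. In that gut CD4 pair Bcl6 was high on both sides.

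Cxcr5, the follicle homing receptor, had the largest treatment difference of the 9 in each population. For spleen CD4 cells the IgG libraries held 57.9, 45.2 and 228 CPM and those labelled anti-IL-2 178, 216 and 79.2 CPM, in the order of batches above. In spleen CD8 cells the values were 3.27, 1.83 and 39.3 CPM after IgG and 30.0, 39.3 and 3.31 CPM after anti-IL-2. Gut CD4 cells held 5.54 and 47.0 CPM after IgG and 34.1, 43.6 and 4.09 CPM after anti-IL-2. Each population thus splits into libraries with much Cxcr5 and libraries with little, and the batch 190306 libraries are on the opposite side from their label mates. The split was widest in gut CD8 cells, with 0.641 and 20.8 CPM after IgG and 11.8, 11.6 and 0.798 CPM after anti-IL-2. Its log2 fold changes were 1.94 ± 0.20 (spleen CD4), 3.74 ± 0.30 (spleen CD8), 2.86 ± 0.34 (gut CD4) and 4.22 ± 0.58 (gut CD8; edgeR, adjusted p = 0.00033, 0.000216, 0.00239 and 0.00432). On the linear scale these are 3.82-, 13.3-, 7.27- and 18.7-fold. In batch 190306 the differences were -1.53, -3.53, -3.49 and -4.53 in log2 CPM.

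Il21 and Cd40lg encode the soluble and the membrane-bound help signal. In batches 181201 and 181212 Il21 rose in all 4 populations, and Cd40lg in none. In batch 190306 the Il21 difference in log2 CPM was -1.26 in both spleen populations, -0.69 in gut CD4 and -1.45 in gut CD8 cells. Il21 in spleen CD4 cells was at 64.4, 61.6 and 82.4 CPM after IgG and 98.0, 148 and 34.3 CPM after anti-IL-2. In gut CD4 cells it was at 29.2 and 50.8 CPM and 63.0, 81.3 and 31.3 CPM. The CD8 libraries held far less, with 1.69 to 13.6 CPM over both tissues. Their IgG libraries held 3.27, 4.15 and 5.17 CPM in spleen and 1.71 and 4.79 CPM in gut, and those labelled anti-IL-2 8.31, 13.6 and 2.10 and 9.80, 9.85 and 1.69 CPM. Within batches 181201 and 181212 every anti-IL-2 library was above every IgG library of its population. Il21 rose in CD4 cells by 0.94 ± 0.15 log2 units in spleen (edgeR, adjusted p = 0.00142) and 1.46 ± 0.21 in gut (adjusted p = 0.00225). CD8 cells, from low counts, had 1.53 ± 0.24 in spleen (adjusted p = 0.00268) and 2.68 ± 0.36 in gut (adjusted p = 0.00185).

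Cd40lg in spleen CD4 cells held 139, 125 and 87.9 CPM after IgG and 117, 121 and 94.7 CPM after anti-IL-2, with overlapping groups and a log2 fold change of -0.14 ± 0.10 that did not pass (adjusted p = 0.38). Gut CD4 cells held 180.2 and 198 CPM after IgG and 149, 158 and 144 CPM after anti-IL-2, and gut CD8 cells 3.69 and 3.91 CPM and 3.07, 1.87 and 1.91 CPM. In these gut populations the anti-IL-2 values lie below both IgG values with batch 190306 included. Cd40lg was the 1 member of 9 whose groups did not overlap over all 3 batches in each gut population, where 10.9% (CD4; 6.07% higher, 4.81% lower) and 13% (CD8; 7.08% higher, 5.88% lower) of all genes did not overlap, so a count of 1 is near the background. Its fits in batches 181201 and 181212 did not pass in the gut (-0.24 ± 0.13, adjusted p = 0.237, and -0.60 ± 0.28, adjusted p = 0.193). In spleen CD8 cells, where counts were low, it held 3.16, 3.88 and 1.30 CPM after IgG and 2.17, 1.47 and 1.44 CPM after anti-IL-2, with overlapping groups, and it fell in the earlier batches (-0.94 ± 0.24, adjusted p = 0.0244). That call was lost without the IgG library of batch 181212 (adjusted p = 0.158) or its anti-IL-2 library (adjusted p = 0.181), and with limma voom (adjusted p = 0.0658).

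Icos, the costimulator, had small differences whose direction was not the same in all populations. In spleen CD4 cells it held 803, 766 and 686 CPM after IgG and 940.3, 1105 and 639.6 CPM after anti-IL-2, and spleen CD8 cells held 272, 279 and 208 and 327, 340.3 and 222 CPM. Both batch 190306 libraries were low in each cell type of the spleen, whatever their label. Icos rose by 0.39 ± 0.07 in spleen CD4 (edgeR, adjusted p = 0.00207) and 0.26 ± 0.08 in spleen CD8 cells (adjusted p = 0.0353). The CD8 call did not hold when any of the 4 libraries of batches 181201 and 181212 was left out, with adjusted p from 0.158 to 0.185. In gut CD4 cells, at 701 and 642 CPM after IgG and 663, 749 and 665 CPM after anti-IL-2, the log2 fold change was 0.05 ± 0.09 (adjusted p = 0.789). In gut CD8 cells it fell by 0.38 ± 0.09 (adjusted p = 0.0213), from 421 and 322 CPM to 327, 308 and 337 CPM. That fall was not called without the anti-IL-2 library of batch 181212 (adjusted p = 0.144), and its groups overlap.

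Btla and Cd200, which encode inhibitory members of the same surface set, rose with anti-IL-2 in the spleen of batches 181201 and 181212. Btla in spleen CD4 cells was at 316, 326 and 396 CPM after IgG and 524, 702 and 249 CPM after anti-IL-2. Spleen CD8 cells held 107, 120.4 and 156 and 192, 241 and 78.7 CPM, and gut CD4 cells 77.5 and 126 and 151, 157 and 70.4 CPM. In each the anti-IL-2 libraries of batches 181201 and 181212 were above the IgG libraries of those batches, and the library of batch 190306 was below its IgG partner. The log2 fold change of Btla was 0.93 ± 0.11 in spleen CD4, 0.92 ± 0.12 in spleen CD8 and 1.07 ± 0.16 in gut CD4 cells (edgeR, adjusted p = 0.000328, 0.000868 and 0.0027). In gut CD8 cells, with 58.4 and 72.6 CPM after IgG and 71.9, 64.1 and 37.7 CPM after anti-IL-2, it was 0.30 ± 0.16 and did not pass (adjusted p = 0.266). Cd200 rose in all 4 populations of batches 181201 and 181212, each time by a little over 1 log2 unit. It held 49.9, 50.0 and 90.1 CPM in spleen CD4 cells after IgG and 92.8, 126 and 44.6 CPM after anti-IL-2, and 14.6 and 25.4 and 29.7, 31.1 and 9.49 CPM in gut CD8 cells. Spleen CD8 cells held 15.6, 20.3 and 40.6 and 40.5, 49.6 and 16.7 CPM, and gut CD4 cells 18.4 and 38.3 and 37.8, 40.3 and 14.5 CPM. The groups overlap in all 4 populations once batch 190306 is counted. Its log2 fold changes were 1.13 ± 0.10, 1.32 ± 0.11, 1.20 ± 0.15 and 1.16 ± 0.15 in spleen CD4, spleen CD8, gut CD4 and gut CD8 cells (adjusted p from 5.86e-06 to 0.000562).

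Slamf6, the SLAM receptor, and Sh2d1a, which encodes the adaptor that SLAM receptors signal through, rose in the spleen of batches 181201 and 181212. Their fold changes were smaller in the gut, a difference that passed only for Slamf6 in CD8 cells when tested further on. Slamf6 in spleen CD4 cells stood at 702, 609 and 1069 CPM after IgG and 1327, 1527 and 578 CPM after anti-IL-2. Spleen CD8 cells held 266, 257 and 580.1 CPM and 577, 696 and 271 CPM. In the gut, CD4 cells held 226 and 336 and 349.7, 378 and 157 CPM and CD8 cells 167 and 226 and 249, 231 and 119 CPM. The library of batch 190306 labelled anti-IL-2 was the lowest of its population in all but spleen CD8 cells, where it was near the low IgG libraries. The log2 fold change was 1.13 ± 0.10 and 1.27 ± 0.10 for CD4 and CD8 cells of the spleen and 0.71 ± 0.13 and 0.54 ± 0.13 in gut CD4 and CD8 cells (edgeR, adjusted p = 2.67e-05, 3.31e-05, 0.00685 and 0.0264). The gut CD4 call was lost without the anti-IL-2 library of batch 181212 (adjusted p = 0.0553), and the gut CD8 call without that of batch 181201 (adjusted p = 0.09). Sh2d1a moved in a narrow range, with 60.1, 64.6 and 98.8 CPM after IgG and 110.4, 109.6 and 75.5 CPM after anti-IL-2 in spleen CD4 cells. Spleen CD8 cells held 55.5, 60.2 and 82.9 and 92.8, 85.4 and 73.9 CPM, gut CD4 cells 50.1 and 56.4 and 65.7, 68.0 and 40.2 CPM, and gut CD8 cells 51.6 and 62.8 and 65.3, 56.8 and 46.0 CPM, with overlap in each population. It rose by 0.83 ± 0.08 in spleen CD4 and 0.61 ± 0.08 in spleen CD8 cells (adjusted p = 1.24e-05 and 0.000356). In gut CD4 cells it was higher by 0.42 ± 0.11 (adjusted p = 0.023), a call lost without either anti-IL-2 library (adjusted p = 0.0525 without that of batch 181201 and 0.141 without that of batch 181212) and with DESeq2 (adjusted p = 0.0513). In gut CD8 cells its value was 0.24 ± 0.11 (adjusted p = 0.179).

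**Figure D2:**
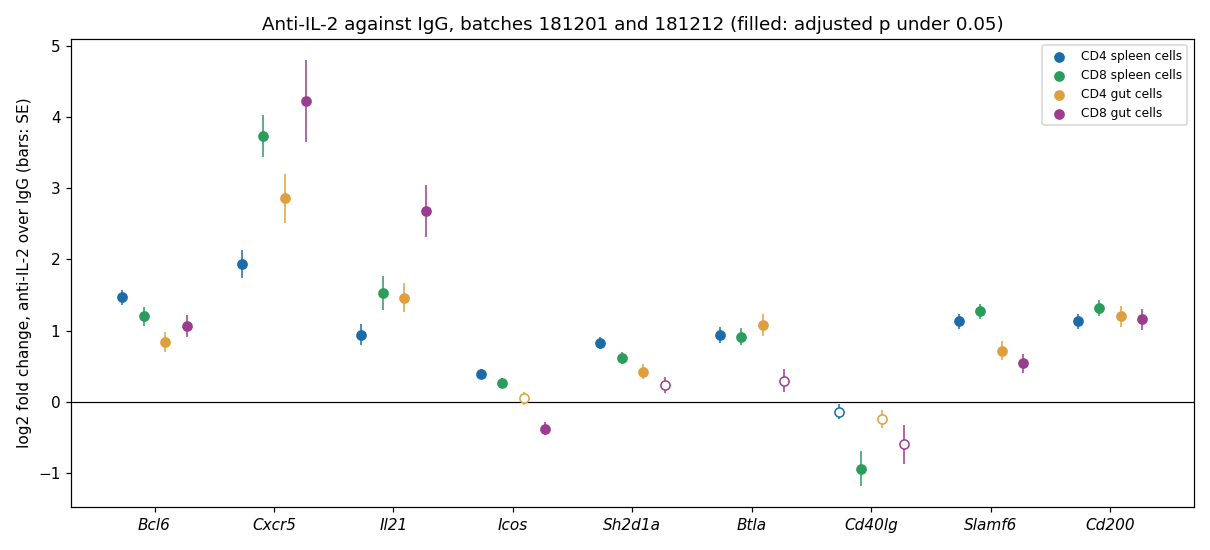
Log2 fold change of anti-IL-2 over IgG for each member in the 4 populations, from the edgeR fit of batches 181201 and 181212; bars are standard errors and filled points have an adjusted p under 0.05. Cxcr5 has the highest point in each population, from 1.94 in spleen CD4 to 4.22 in gut CD8 cells, and Cd40lg lies below 0 in all 4.

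The labelled treatment difference of batch 190306 was then set against that of the other batches. Because that batch was picked out for its direction, the counts restate that observation with a size and are no independent test of it. In spleen CD4 cells 8 of 9 members were called lower in batch 190306, against 24.3% of 12841 genes called (12.8% higher, 11.5% lower). The count was 7 in spleen CD8 (16.1% of genes, 7.92% higher and 8.2% lower), 7 in gut CD4 (15%, 8.4% higher and 6.56% lower) and 7 in gut CD8 cells (13%, 6.42% higher and 6.55% lower). Bcl6, Cxcr5, Il21, Sh2d1a, Btla, Slamf6 and Cd200 were called in each population. For Cxcr5 the difference between batches was -3.45 ± 0.33, -7.31 ± 0.48, -6.38 ± 0.50 and -8.92 ± 0.77 in log2 units in spleen CD4, spleen CD8, gut CD4 and gut CD8 cells, and for Bcl6 it was -2.76 ± 0.18, -2.71 ± 0.23, -1.01 ± 0.20 and -1.63 ± 0.22. Icos passed in spleen CD4 cells (-0.48 ± 0.13, adjusted p = 0.0147), a call lost without the IgG (0.058) or the anti-IL-2 library (0.0524) of batch 181212. Cd40lg passed in none, with values of 0.26 ± 0.17, 1.08 ± 0.48, -0.21 ± 0.19 and -0.44 ± 0.42. The spread in this test comes from the earlier batches, since batch 190306 has 1 library per group, and in the gut only batch 181212 gives an earlier pair. What set that batch apart was not tested.

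**Figure D3:**
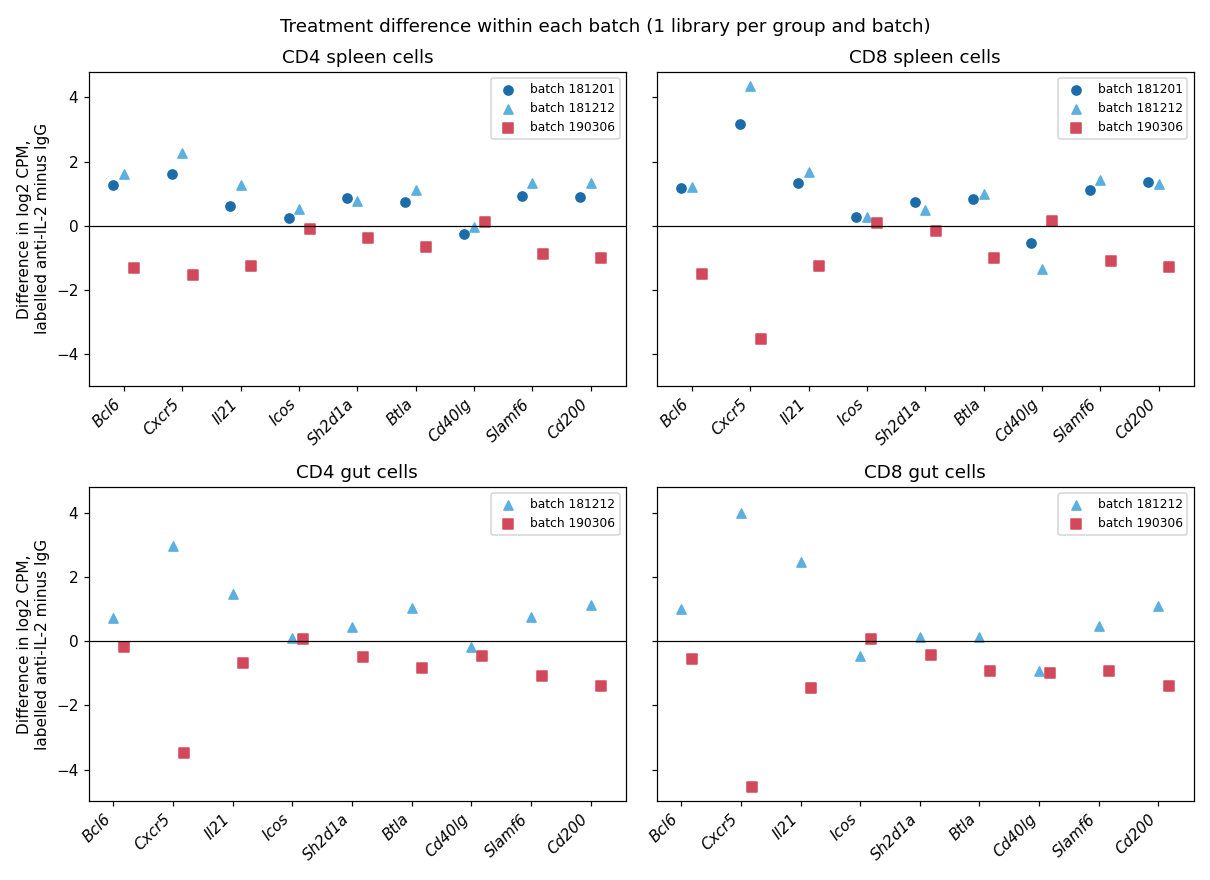
Difference in log2 CPM between the library labelled anti-IL-2 and the IgG library of the same batch, for each member and population; each point rests on 1 library per group. In the spleen of batches 181201 and 181212 every member but Cd40lg lies above 0, and in batch 190306 Bcl6, Cxcr5, Il21, Sh2d1a, Btla, Slamf6 and Cd200 lie below 0 in all 4 populations.

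With all 3 batches under their labels in 1 edgeR fit, 0 of 9 members passed in any population, and 0% of 12841 genes did. The values were small beside their errors, for example 0.60 ± 0.53 for Bcl6 and 0.84 ± 1.33 for Cxcr5 in spleen CD4 cells. At an unadjusted edgeR p under 0.05 Cd40lg alone passed, in spleen CD8 cells (-0.66 ± 0.29, adjusted p = 1) and in gut CD8 cells (-0.84 ± 0.30, adjusted p = 0.579). In gut CD4 cells Cd40lg was at -0.43 ± 0.20 (edgeR, adjusted p = 0.843). DESeq2 and limma voom also called 0 of 9 in each population.

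Differences between treatment effects were tested in batches 181201 and 181212. Between gut and spleen CD8 cells, Icos (-0.64 ± 0.12, adjusted p = 0.0159) and Slamf6 (-0.73 ± 0.16, adjusted p = 0.0483) had a smaller or opposite change in the gut, 2 of 9 members against 2.39% of genes called (1.32% higher, 1.07% lower). The Icos call was lost without the spleen IgG library of batch 181212 (adjusted p = 0.0597) or the spleen anti-IL-2 library of batch 181201 (0.0881) or 181212 (0.0525). Of the 6 libraries that could be left out, only the spleen anti-IL-2 library of batch 181201 left the Slamf6 call in place; without the others its adjusted p reached 0.168. In CD4 cells 0 of 9 differed between gut and spleen, against 5.39% of genes called (3.45% higher, 1.94% lower), and the smallest adjusted p was that of Bcl6 (-0.63 ± 0.17, adjusted p = 0.0533). Bcl6 was called there without the spleen IgG or the spleen anti-IL-2 library of batch 181201 (adjusted p = 0.0493 and 0.0422). Between CD8 and CD4 cells 0 of 9 differed in spleen (0.918% of genes called, 0.75% higher and 0.168% lower) and 0 of 9 in gut (0.0841%, 0.0612% higher and 0.0229% lower). Cxcr5 was nearest in spleen, with a CD8 change larger by 1.80 ± 0.37 (adjusted p = 0.104), and it passed with DESeq2 (adjusted p = 8.05e-07) and without the CD4 spleen IgG library of batch 181212 (adjusted p = 0.0213). In the gut Btla was nearest to passing, with -0.78 ± 0.21 (adjusted p = 0.346), and it passed with DESeq2 (adjusted p = 0.0362).

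Tissue and cell type were compared over all 22 libraries, within each combination of batch and labelled treatment, so these results do not depend on the treatment labels of a batch. In CD4 cells 6 of 9 members were lower in gut than in spleen and Cd40lg was higher, against 49.3% of genes called (22.7% lower and 26.6% higher). In CD8 cells 5 were lower and 2 higher, against 47.8% (23% lower and 24.8% higher). The follicular receptor Cxcr5 was at 134 ± 82.8 CPM (SD, n = 6 libraries) in spleen and 26.9 ± 20.7 CPM (n = 5) in gut CD4 cells, and its log2 fold change was -2.91 ± 0.34 (edgeR, adjusted p = 8.78e-06). In CD8 cells it was -1.25 ± 0.38 (adjusted p = 0.0139), lower in gut in 5 of 5 pairs of libraries of the same batch and treatment. Btla fell by 1.91 ± 0.11 in CD4 and by 1.29 ± 0.11 in CD8 cells, Slamf6 by 1.81 ± 0.11 and by 1.17 ± 0.10, Cd200 by 1.48 ± 0.07 and by 0.58 ± 0.08, and Sh2d1a by 0.70 ± 0.08 and by 0.49 ± 0.08, in that order. Each of these was lower in gut in 5 of 5 pairs in both cell types. Il21 was lower in gut CD4 cells (-0.70 ± 0.16, adjusted p = 0.00235) and did not pass in CD8 cells (-0.22 ± 0.23, adjusted p = 0.448).

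Cd40lg in CD4 cells, and Bcl6 and Icos in CD8 cells, were higher in gut than in spleen. Cd40lg was higher in gut than in spleen CD4 cells, at 166 ± 22.9 against 114 ± 19.2 CPM and in 5 of 5 pairs. Its log2 fold change was 0.62 ± 0.14 (edgeR, adjusted p = 0.00142). Bcl6 was higher in gut than in spleen CD8 cells, at 27.2 ± 9.92 against 12.5 ± 6.03 CPM (1.01 ± 0.21, adjusted p = 0.000931, 5 of 5 pairs). In CD4 cells Bcl6 was at -0.26 ± 0.19 and did not pass (adjusted p = 0.273), although it was lower in gut without the gut anti-IL-2 library of batch 190306 (-0.46, adjusted p = 0.0305) and over batches 181201 and 181212 (-0.55, adjusted p = 0.00451). Icos was higher in gut CD8 cells by 0.34 ± 0.11 (adjusted p = 0.0201), a call lost when any of 5 of the 11 libraries was left out (adjusted p up to 0.075), and did not pass in CD4 cells (-0.25 ± 0.11, adjusted p = 0.078). The fall from spleen to gut was smaller, or the rise larger, in CD8 than in CD4 cells for 5 of 9 members, against 4.65% of genes called (2.34% higher in CD8, 2.31% lower). These were Bcl6 (by 1.26 ± 0.27, adjusted p = 0.0178), Cd200 (0.90 ± 0.10, 0.000241), Slamf6 (0.64 ± 0.14, 0.0191), Btla (0.62 ± 0.15, 0.0341) and Icos (0.59 ± 0.16, 0.041). The Btla call was lost without 14 of the 22 libraries in turn (edgeR, adjusted p up to 0.0737) and the Icos call without 15 (up to 0.0957). Bcl6, Slamf6 and Cd200 passed without each of the 22 libraries in turn. Fewer members were called in batches 181201 and 181212 only or with no block, as given in the closing section. Markers of other cells differed between the tissues too. The summed epithelial markers ran from 18 to 99.3 CPM in gut and 5.9 to 11.3 CPM in spleen libraries, but Cdh1 alone gave 14.5 to 89.0 CPM in gut (0.47 to 3.20 in spleen), while Epcam overlapped (2.01 to 16.4 CPM in gut and 3.35 to 10.1 CPM in spleen) and Vil1 was at 0 in 1 gut library. Plasma cell markers, mostly Jchain, ran from 14.4 to 479 against 0.6 to 11.8 CPM, and stress and immediate early genes from 1473 to 7194 against 398 to 1665 CPM. Their part in the tissue differences was not tested.

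All 9 members were higher in CD4 than in CD8 cells of the spleen, against 58.1% of genes called (28.9% higher, 29.2% lower), and 8 of 9 in the gut, against 46% (22.9% higher, 23.1% lower). The help signals had the largest differences. Cd40lg was at 114 ± 19.2 CPM in spleen CD4 and 2.24 ± 1.06 CPM in spleen CD8 cells (SD, n = 6 each), a log2 difference of 5.71 ± 0.18, and at 5.86 ± 0.19 in the gut. Il21 differed by 3.82 ± 0.18 in spleen and 3.33 ± 0.20 in gut, Cxcr5 by 3.28 ± 0.32 and 1.62 ± 0.38, and Bcl6 by 2.36 ± 0.19 and 1.09 ± 0.20. With both tissues pooled, the lowest CD4 library was above the highest CD8 library for Cd40lg, Il21 and Icos, and the ranges overlapped for the other 6. Within the spleen the lowest CD4 library was also above the highest CD8 library for Bcl6 (31.6 against 19.8 CPM), Cxcr5 (45.2 against 39.3) and Btla (249 against 241). The share of all genes that do not overlap in this way was not counted, so these separations cannot be set against a background. Icos (log2 difference 1.58 ± 0.11 in spleen), Btla (1.50 ± 0.10), Cd200 (1.34 ± 0.07) and Slamf6 (1.16 ± 0.10) differed less. Sh2d1a, whose product also works in CD8 and NK cells, had the smallest difference between the lineages. It stood at 86.5 ± 22.6 CPM in spleen CD4 and 75.1 ± 14.8 CPM in spleen CD8 cells (0.19 ± 0.07, adjusted p = 0.0276, lost without 7 of the 12 libraries in turn, with adjusted p up to 0.0778), and in the gut it did not pass (-0.02 ± 0.08, adjusted p = 0.832).

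**Figure D4:**
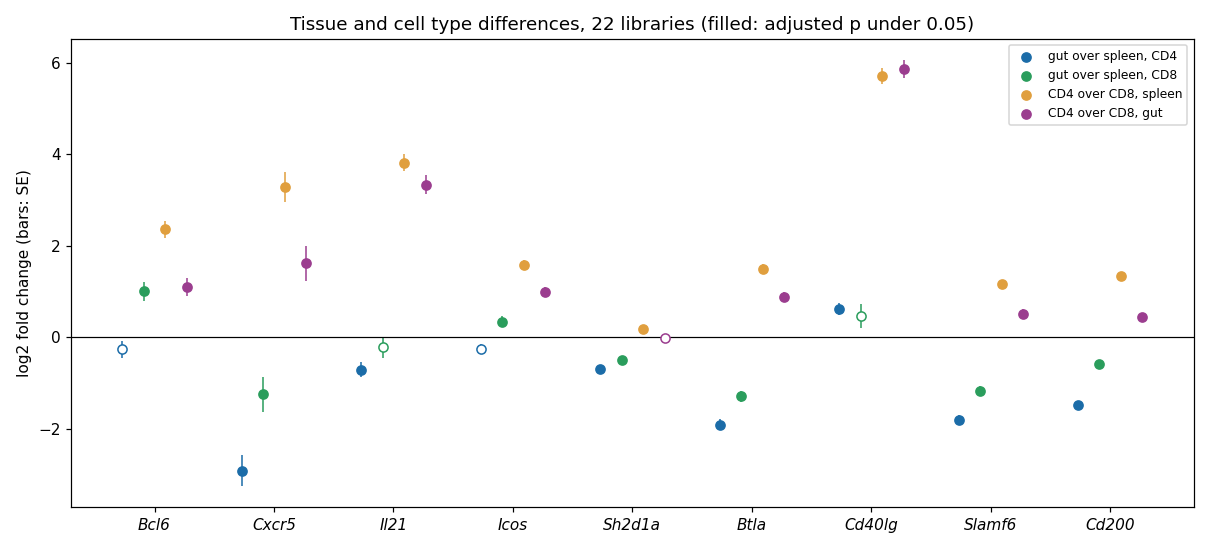
Log2 fold changes of gut over spleen in CD4 and CD8 cells and of CD4 over CD8 in spleen and gut, from the edgeR fit of 22 libraries; bars are standard errors and filled points have an adjusted p under 0.05. Cd40lg has the largest lineage difference (5.71 and 5.86), and Bcl6 in CD8 cells (1.01) lies above 0 where Cxcr5, Sh2d1a, Btla, Slamf6 and Cd200 lie below 0.

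Other transcription factors of the Tfh programme were followed as a list of 14. In batches 181201 and 181212, 9 rose in CD4 and 6 in CD8 cells of the spleen (median log2 fold changes 0.71 and 0.33), where 9.8% and 6.06% of all genes rose. The gut had 5 that rose in CD4 and 7 in CD8 cells (both medians 0.44), with 1 lower in the latter, where 6.04% and 5.51% of all genes rose. Tcf7, which encodes TCF1, changed by 1.37 ± 0.12, 2.30 ± 0.12, 1.03 ± 0.15 and 2.24 ± 0.17 in that order, and by -1.28, -2.95, -2.27 and -3.28 in log2 CPM in batch 190306. Id3, an inhibitor of E proteins, rose by 1.35 ± 0.12 and 2.48 ± 0.16 for CD4 and CD8 cells of the spleen, and Bach2, a repressor tied to memory fates, by 0.84 ± 0.11 and 1.60 ± 0.12. Tox2 was higher in gut CD4 (1.54 ± 0.26) and gut CD8 cells (2.19 ± 0.28). Lef1, the partner of TCF1, was the 1 member of the list that fell, in gut CD8 cells (-0.78 ± 0.10, adjusted p = 0.000424).

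The 12 genes that oppose Bcl6 moved in both directions. Spleen CD4 cells had 7 that fell and 2 that rose (median -0.44), in spleen CD8 cells 4 fell (-0.22), in gut CD4 cells 2 fell and 2 rose (-0.07), and in gut CD8 cells 2 fell (-0.21). Of all genes 20.1%, 12.1%, 11.7% and 10.7% were called in these populations, so the 2 of 12 in gut CD8 cells are near the background. Il2ra, whose direction is fixed by the choice of batches, was lower in each, by 2.01 ± 0.12, 1.78 ± 0.12, 1.08 ± 0.14 and 1.24 ± 0.14. Prdm1, which encodes Blimp-1, fell in spleen CD4 cells (-0.47 ± 0.07, adjusted p = 0.000435) and rose in gut CD4 cells (0.32 ± 0.09, adjusted p = 0.0326), where Bcl6 rose as well. In CD8 cells it did not pass (-0.21 ± 0.07 in spleen and 0.11 ± 0.09 in gut). Gata3 and Tbx21, the regulators of Th2 and Th1 cells, fell in spleen CD4 (-0.75 ± 0.09 and -0.73 ± 0.10) and spleen CD8 cells (-0.50 ± 0.09 and -0.46 ± 0.10). The 2 that rose in spleen CD4 cells were Stat5a (0.40 ± 0.06) and Stat5b (0.30 ± 0.05), which encode the signal transducers of the IL-2 receptor. Between tissues, Prdm1 was higher in gut than spleen CD4 cells (0.59 ± 0.12) and Tcf7 lower (-1.61 ± 0.26, and -0.98 ± 0.25 in CD8 cells). Prdm1 was lower in CD4 than CD8 cells of the spleen (-0.88 ± 0.11), and Maf, a Tfh factor that drives Il21, was higher by 2.95 ± 0.09 there and by 3.23 ± 0.10 in the gut.

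**Figure D5:**
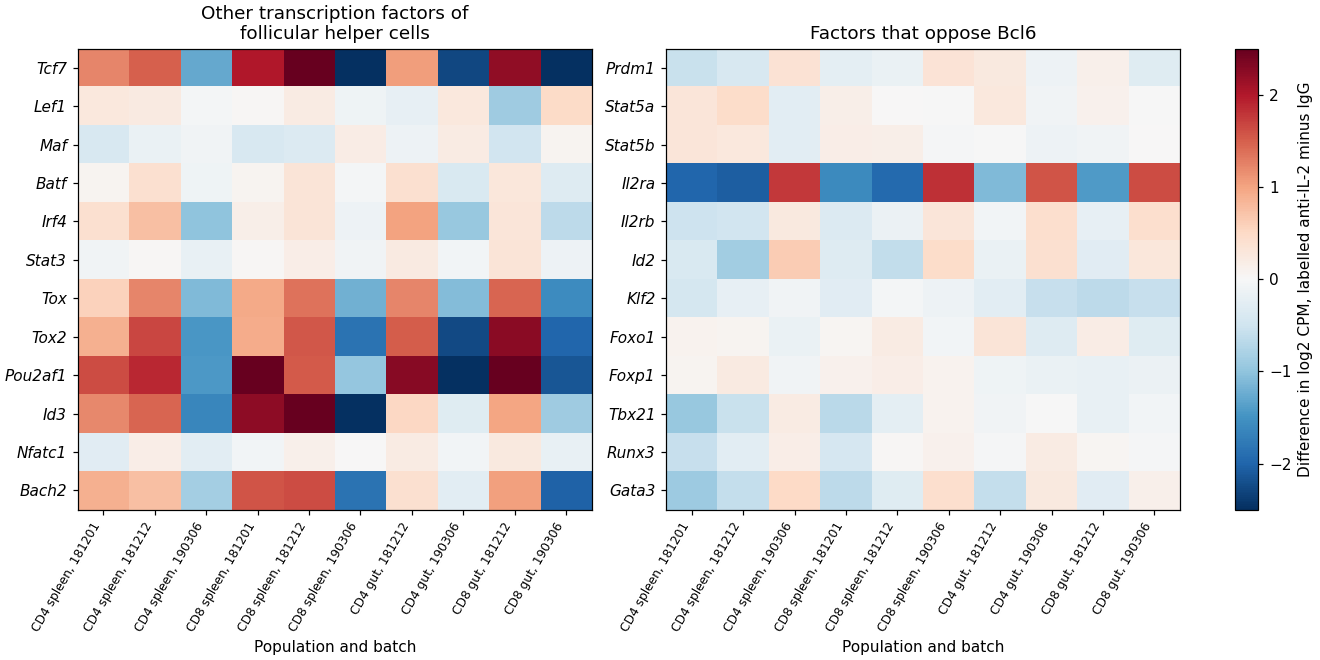
Difference in log2 CPM between the library labelled anti-IL-2 and the IgG library of the same batch for 12 of the 14 other Tfh transcription factors (left) and 12 genes that oppose Bcl6 (right), by population and batch; red is higher and blue lower, colours saturate at the ends of the scale, and Ascl2 (low counts) and 1 other factor are not drawn. Tcf7 and Il2ra have opposite colours in every column, and both turn in the columns of batch 190306.

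Further surface and signalling genes of Tfh cells (23 genes) rose in 12, 9, 8 and 5 cases and fell in 2, 1, 1 and 1 in spleen CD4, spleen CD8, gut CD4 and gut CD8 cells, with medians of 0.40, 0.21, 0.27 and 0.21. The shares of all genes that rose were 9.8%, 6.06%, 6.04% and 5.51%, and of those that fell 10.3%, 6.08%, 5.68% and 5.22%. Il6st, the signalling chain of the IL-6 receptor, rose in all 4 (1.29 ± 0.06, 0.73 ± 0.06, 1.09 ± 0.08 and 0.82 ± 0.08), as did Tnfsf8, which encodes CD30 ligand (0.95 ± 0.11, 1.62 ± 0.13, 1.15 ± 0.15 and 1.69 ± 0.19). Pdcd1, which encodes PD-1 and is high on Tfh cells, rose in spleen CD8 (0.36 ± 0.06) and gut CD4 cells (0.47 ± 0.08) and did not pass in spleen CD4 (0.10 ± 0.06) or gut CD8 cells (0.17 ± 0.08). Unlike the members, Pdcd1 was lower in CD4 than CD8 cells (-0.57 ± 0.11 in spleen). Of 6 genes that Tfh cells lose on entering the follicle, 3 rose and 1 fell in spleen CD4, 3 rose in spleen CD8, 1 rose and 2 fell in gut CD4, and 2 rose and 1 fell in gut CD8 cells, against the same shares of all genes. Ccr7, a receptor for the T cell zone, rose in each population (1.55 ± 0.16, 1.81 ± 0.20, 1.91 ± 0.30 and 2.38 ± 0.44), and Gpr183 rose in the spleen (0.65 ± 0.08 and 0.50 ± 0.09). Of the 7 partners of the members' products, 6 were tested, and 5 (spleen CD4), 3 (spleen CD8), 4 (gut CD4) and 3 (gut CD8) were called in either direction. In these populations 20.1%, 12.1%, 11.7% and 10.7% of all genes were called. Cd40, at up to 3.19 CPM, and Cxcl13, at up to 0.44 CPM and untested, were hardly present. Il21r ran from 124 to 376 CPM and was higher in gut than in spleen in both lineages (0.89 ± 0.06 and 0.95 ± 0.06). Tnfrsf14, which encodes the BTLA ligand HVEM, rose with anti-IL-2 in all 4 populations (0.75 ± 0.09, 0.45 ± 0.09, 0.71 ± 0.12 and 0.69 ± 0.12). Icosl, the ligand of ICOS, fell in all 4 (-0.38 ± 0.07, -0.27 ± 0.08, -0.36 ± 0.09 and -0.55 ± 0.10), and Cd200r1, the receptor of CD200, fell in spleen CD4 cells (-1.14 ± 0.11). In batch 190306 Ccr7 and Tnfrsf14 were lower, and Icosl higher, in the library labelled anti-IL-2 of each population. In its spleen CD4 cells Ccr7 was at 22.2 against 79.5 CPM after IgG, Tnfrsf14 at 39.7 against 70.7 and Icosl at 79.5 against 63.7.

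B cells also make Bcl6, Cxcr5, Btla, Slamf6 and Cd200, so their markers were read beside these results. Over the 10 B cell markers the summed level ran from 9.0 to 181 CPM, and nearly all of it was Cd22 (5.43 to 179 CPM) and Cd79b (0.86 to 18.3 CPM). The defining markers Ms4a1, Pax5, Cr2 and Fcer2a were at 0 to 0.56 CPM in the 22 libraries. By group, the B cell sum was highest in spleen CD4 cells (63.1 to 181 CPM) and lower in spleen CD8 (31.3 to 73.9 CPM), gut CD8 (19.6 to 50.6 CPM) and gut CD4 cells (8.98 to 54.7 CPM). Macrophage and monocyte markers (12 genes) summed to 15.2 to 189 CPM in spleen CD4 cells after IgG and 27.3 to 272 CPM in those labelled anti-IL-2, and 3 of the 12 were called higher in the latter in batches 181201 and 181212 (median log2 fold change 2.45; Cd68, Spic and Vcam1). Cd68 was also the 1 called in spleen CD8 cells, and 0 were called in the gut. Of all genes 9.8% were called higher in spleen CD4 cells of these batches. In spleen CD8, gut CD4 and gut CD8 cells 12.1%, 11.7% and 10.7% were called in either direction. In the other populations the macrophage sum ran from 16.8 to 121 CPM. Erythroid markers reached 39.1 CPM in the spleen CD4 anti-IL-2 library of batch 181201. Regulatory T cell markers (Foxp3, Ikzf2, Il2ra and Ctla4) summed to 521 to 716 CPM in spleen CD4 cells after IgG and 609 to 735 CPM in those labelled anti-IL-2. In gut CD4 cells they summed to 666 to 818 and 644 to 1128 CPM. These sums cover all batches and hide opposite moves. In gut CD4 cells of batch 181212 Foxp3 went from 61.8 to 164, Ikzf2 from 51.0 to 157 and Ctla4 from 352 to 713 CPM. Il2ra went from 201 to 93.2 CPM there, and Foxp3 from 38.4 to 35.1 CPM in spleen CD4 cells of that batch. The part of these other cells in the members' differences was not tested.

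After the mean of each population was taken away, most members followed each other over the 22 libraries. Of the 36 pairs, 30 had a positive r, with a median of 0.66. Slamf6 with Cd200 had the highest r (0.968), and Bcl6 with Cd40lg the lowest (-0.374). Icos with Bcl6 (0.0702) and with Cxcr5 (0.0109) was near 0. These values describe libraries that share batches and treatments. Il2ra ran against Slamf6 (r = -0.964), Cd200 (-0.952), Sh2d1a (-0.912) and Cxcr5 (-0.892), and less so against Bcl6 (-0.706), while Prdm1 had r = -0.511 with Bcl6 and -0.339 to 0.282 with the other members. Mki67, a gene of dividing cells, ran against Slamf6 (r = -0.779), Bcl6 (-0.765) and Sh2d1a (-0.758), and from -0.712 to 0.148 with the rest. Cd68, one of the macrophage markers, followed Sh2d1a (r = 0.782), Cxcr5 (0.682), Bcl6 (0.678) and Slamf6 (0.656), and had r from -0.481 to 0.584 with the others. What lies behind these relations was not tested.

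Among all 12841 genes, the pattern of Cxcr5 was most like that of Tcf7 (r = 0.981), Sostdc1 (r = 0.975) and Ccr6 (r = 0.964). For Bcl6 the nearest were Synj2 (r = 0.941), Rhoh (r = 0.938) and Sesn3 (r = 0.934), and for Il21 Ociad2 (r = 0.941), Ypel2 (r = 0.939) and Rnf165 (r = 0.936). Slamf6 was nearest to Igf1r (r = 0.975), Cd200 (r = 0.968) and Tshz2 (r = 0.965), Cd200 to Ispd (r = 0.980), Tox (r = 0.973) and Slamf6 (r = 0.968), Btla to Ms4a4c (r = 0.953) and Xrcc4 (r = 0.943), and Sh2d1a to Nrip1 (r = 0.924), Asap1 (r = 0.920) and Fam118a (r = 0.912). Icos was less closely matched, by Cd2ap (r = 0.869), Usp32 (r = 0.856) and Rcbtb1 (r = 0.852), and Cd40lg least, by Cd44 (r = 0.784), Rarg (r = 0.748) and Lncpint (r = 0.746). Cd44 encodes an adhesion receptor of activated T cells. All of these r values are over 22 libraries that share batches and treatments.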

How the data were processed

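The values deposited by the authors are unnormalized read counts, 1 row for each symbol. The submitters' processing notes name TopHat2, HTSeq 0.9.1 and the build mm10. The annotation, strand setting and filters are not given in the sources used here. Totals per library were 14628806 to 24518362 counts, which set the precision of low genes. A count covers counting error only, as PCR copies of a molecule were not told apart.

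Counts were tested in R 4.3.3 with edgeR 4.0.16 (robust quasi-likelihood test, filterByExpr, TMM), with Benjamini-Hochberg adjustment over all genes tested and a threshold of 0.05. Treatment was fitted with batch as a term in the 14 libraries of batches 181201 and 181212 (13073 genes), and in all 22 libraries (12841 genes). The difference of batch 190306 was fitted in all 22 libraries. Tissue and cell type were fitted over 22 libraries with each combination of batch and treatment as a block. Standard errors (SE) were derived from the F statistic, and log2 CPM used a prior count of 2. CPM per kb used the exon union of GENCODE M21. The fits were tested on simulated data: in the spleen CD4 treatment fit 80.2% of genes changed by 1 log2 unit were recovered, over 12429 genes, and 6.36% of its calls were false. In the simulated fit of the batch 190306 difference (12371 genes) 66.7% were recovered and 9.87% of calls were false, above the threshold. The simulations covered CD4 contrasts only. Treatment in the gut, with a lone IgG library in batches 181201 and 181212, was not simulated.

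Replicate numbers were given in accession order and pair nothing; the labelled batch is the block. No 2 of the 20 pairs of libraries of the same group had identical counts. The labels do not say whether libraries came from separate or pooled animals, so p-values measure the spread between these libraries, which may be technical. The members, the gene lists and the fits that set batch 190306 apart were chosen with earlier results of these data known. The text names the members, Prdm1, Il2ra, Tcf7 and Pdcd1, up to 4 genes of a list with the smallest p in a contrast, and the 3 genes most like each member (a few items that this rule or the lists hold are not reported here); any other gene, such as Stat5a, Stat5b or a listed gene shown for a further population, was named after its values were seen. Alternatives were DESeq2 1.42.0, limma voom (limma 3.58.1), other scalings, no filter, no block, the tissue of the description, and each library left out in turn; the fit of tissue and cell type in batches 181201 and 181212 only was chosen after seeing the data. Recipients lacking PD-L1, named in the title of the series, were not analysed here.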

Additional observations from a re-analysis of the deposited data

Results flagged for a closer look

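The treatment difference of Icos was lower in gut than in spleen CD8 cells of batches 181201 and 181212, by -0.64 on the log2 scale (edgeR, adjusted p = 0.0159), and that of Slamf6 by -0.73 (adjusted p = 0.0483). The difference between gut and spleen was shifted upward in CD8 relative to CD4 cells for Bcl6 by 1.26 (adjusted p = 0.0178), for Icos by 0.59 (adjusted p = 0.041), for Btla by 0.62 (adjusted p = 0.0341), for Slamf6 by 0.64 (adjusted p = 0.0191) and for Cd200 by 0.90 (adjusted p = 0.000241). Each was picked out because a test of the difference between groups passed its threshold.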

How the results depend on the processing

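Of 2520 values of the members under the alternatives, 11 changed sign while called in at least 1 of the fits, all with the tissue of the CD8 IgG libraries taken from the description. These were, for the treatment difference of gut against spleen CD8 cells, Bcl6 at 1.49, Cxcr5 at -3.60, Il21 at -1.40 and Icos at 0.50; for treatment in gut CD8 cells, Btla at -0.74, Icos at 0.19 and Slamf6 at -0.13; for treatment in spleen CD8 cells, Icos at -0.31; for CD8 against CD4 spleen, Btla at 1.02; for gut minus spleen CD8, Icos at -0.16; and for CD4 minus CD8 gut, Slamf6 at -0.026. The members called are given with the number of all genes called in parentheses. With that tissue they numbered 5 (5740) in CD4 minus CD8 gut, 0 (0) in gut minus spleen CD8, 1 (203) in its difference between CD8 and CD4, 3 (2616) in treatment of CD8 against CD4 gut, 7 (2266) in CD8 against CD4 spleen, 8 (5095) in gut against spleen CD8, and 1 (2212) in spleen CD8 over 3 batches. With no replicate block the counts were 3 (2497) in CD4 minus CD8 gut, 2 (2605) in gut minus spleen CD8, 0 (11) in its difference between CD8 and CD4 and 1 (66) in treatment of gut against spleen CD8. The batch was the block and replicate numbers paired nothing. With batches 181201 and 181212 only (chosen after seeing the data), 2 members (120) differed between CD8 and CD4 in gut minus spleen. Without the filter that count was 3 (441), and treatment of gut against spleen called 1 (730) in CD4 and 1 (390) in CD8 cells. DESeq2 called 1 (28) in CD8 against CD4 gut and 1 (136) in CD8 against CD4 spleen, RLE scaling called 1 (717) in gut against spleen CD4, and limma voom 1 (344) in gut against spleen CD8. With libraries left out in turn, the members called numbered 8 to 8 (of 1562 to 1882 genes; spleen CD4), 7 to 8 (669 to 954; spleen CD8), 5 to 6 (635 to 857; gut CD4) and 5 to 5 (849 to 1030; gut CD8) for treatment, 0 to 2 (55 to 260; gut against spleen CD8), 0 to 1 (269 to 697; gut against spleen CD4), 0 to 1 (29 to 74; CD8 against CD4 spleen), and 3 to 5 (315 to 836; gut minus spleen, CD8 against CD4). The cause of these changes was not tested.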
